A study of Glycine soja with 14 samples.

Results

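LHY, LCL3, LUXC and ZTL1 are genes of the circadian clock, and their transcripts were followed through 24 h of bicarbonate treatment in leaves of wild soybean (Glycine soja), the wild relative of cultivated soybean. The members were all soybean probe sets whose single gene symbol in the array's annotation table is 1 of these 4. The rule itself reads names only, but the 4 genes were picked with earlier results of these data known, so counts of members set beside all probe sets are descriptions. The rule gave 7 of the 37593 soybean probe sets on the array, and 4 of the 6029 genes that have a symbol of their own. LHY, LUXC and ZTL1 each have 2 probe sets and LCL3 has 1.

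The plant clock is a loop of transcription factors that repress one another at different hours of the day. In Arabidopsis, LHY is a MYB-type factor whose transcript is high around dawn and which represses evening genes, and LUX is a GARP-type factor of the evening complex, which in turn represses genes at night. LCL3 carries the symbol of an LHY/CCA1-like gene and LUXC that of a LUX-like gene. ZTL1 is named for ZEITLUPE, an F-box protein that senses blue light and marks clock proteins for degradation. In Arabidopsis the ZEITLUPE protein cycles while its transcript hardly does.

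Seedlings of line G07256, 21 days old, had grown in cycles of 12 h light and 12 h dark and were moved into nutrient solution with 50 mM NaHCO3 at pH 8.5. Young leaves were taken at 0 h, without bicarbonate, and at 0.5, 1, 3, 6, 12 and 24 h of treatment. Every time was measured on 2 arrays from independent biological replicates, 14 in all, and each array carried RNA pooled from 3 plants. The study asked which genes of the leaf respond to alkaline stress. Untreated leaves were analysed at 0 h only, and no source used here gives the hour of the day at sampling. From 0.5 to 12 h, treatment and time of day therefore cannot be told apart. At 24 h a full light and dark cycle had passed since 0 h, so these 2 times share their place in the cycle, but 24 h of bicarbonate and 24 h of further growth cannot be told apart.

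The values are the deposited intensities, scaled so that each array had the same soybean median of 56.4. Background was set on each array at the 95th percentile of the 23350 probe sets for 2 other organisms, and was 14.8 to 28.6. The summed intensity per array was 7413137 to 8230026, 66.1 to 77.2% of soybean probe sets lay above background, and replicate arrays correlated at 0.965 to 0.985. Both leaf genes checked, CAB3 of the light-harvesting antenna and PSAD of photosystem I, were above background on 14 of 14 arrays. Of 4 nodule genes 1 (NOD33) and of 11 seed genes 2 (KTI-2 and KTI-3) were above background on every array. All comparisons against 0 h share the same 2 arrays. Changes are log2 differences of intensity + 16 with their SE, n = 2 arrays per time, and the added 16 understates changes of dim probe sets. The SE of a probe set pools its replicate gaps over all times, so it is the same for every comparison. It does not describe the spread of the 2 times compared alone. Adjusted p-values are from limma, by Benjamini-Hochberg over all soybean probe sets, and a change passed the test when the adjusted p was under 0.05.

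The dawn factor LHY was abundant in leaves until 3 h, lower at 6 h, lowest at 12 h and high again at 24 h. Its brighter probe set read 1975 and 1611 at 0 h, 2120 and 2044 at 0.5 h, 1999 and 1717 at 1 h, and 1589 and 1741 at 3 h. It then read 686 and 753 at 6 h, 61.0 and 152 at 12 h, and 2528 and 2689 at 24 h. The arrays of 6 h and of 12 h lay below all others without overlap, those of 24 h lay above all others, and those of 1, 0 and 3 h overlapped.

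LHY fell by 1.29 ± 0.28 at 6 h relative to 0 h (adjusted p = 0.0144). At 12 h it fell by 3.98 ± 0.28 relative to 0 h (adjusted p = 4.24e-06). That fall was 15.8-fold in intensity + 16 and 16.8-fold in mean intensity. Of all soybean probe sets, 26 fell further at 12 h. In whole leaves, less RNA per cell and fewer cells that express a gene cannot be told apart. Between consecutive times it fell by 1.19 ± 0.28 at 6 h relative to 3 h (adjusted p = 0.0338), and it fell by 2.69 ± 0.28 at 12 h relative to 6 h (adjusted p = 0.000221). It rose by 4.53 ± 0.28 at 24 h relative to 12 h (adjusted p = 1.59e-06), and 16 probe sets rose further over that step. At 0.5, 1 and 3 h the change from 0 h was 0.22, 0.05 and -0.10, with an SE of 0.28, none past the threshold. The call at 6 h against 0 h ended without 0h replicate 1 or without either 6 h array (adjusted p up to 0.0948). The call at 6 h against 3 h ended in 10 of 26 alternative settings (adjusted p up to 0.159).

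The second LHY probe set gave a like course from 6 h on. It read 1037 and 947 at 0 h, 1464 and 1548 at 0.5 h, 936 and 988 at 1 h, and 1289 and 1275 at 3 h. It read 440 and 407 at 6 h, 37.7 and 83.0 at 12 h, and 1819 and 1892 at 24 h. All arrays of 6 and 12 h were again the lowest, and both arrays of 24 h the highest. At 0.5 h the second probe set was 0.60 ± 0.22 above 0 h with no overlap of arrays (adjusted p = 0.168). At 1 h it differed from 0.5 h by -0.64 ± 0.22 (adjusted p = 0.116). Both changes passed only in some alternative settings, among them without both 12 h arrays. Over these steps the brighter probe set changed by 0.22 and -0.17. The second probe set fell by 1.20 ± 0.22 at 6 h (adjusted p = 0.00685), and it fell by 3.79 ± 0.22 at 12 h (adjusted p = 1.41e-06), each relative to 0 h. Relative to 12 h it rose by 4.68 ± 0.22 at 24 h (adjusted p = 3.69e-07). The call at 6 h against 0 h ended without 6h replicate 2 (adjusted p = 0.0551).

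The 2 LHY probe sets correlated at r = 0.99 over the 14 arrays, and at r = 0.74 over the 10 arrays other than those of 6 and 12 h. Both were far apart between the replicates of 12 h, where replicate 1 was the lower on each. The gap was 1.13 log2 for the first and 0.88 for the second, against a median replicate gap of 0.20 over all soybean probe sets at 12 h. Over the times, the median gap of these 2 probe sets was 0.13 and 0.08. As the SE is shared, the 12 h gap also widens the SE of LHY comparisons that do not involve 12 h. On the array of 12h replicate 1 the background was 14.8 and the deposited signal of the spike-in bioB was 280, against a background of 18.3 and a bioB signal of 474 on replicate 2. Their part in the gap was not tested.

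**Figure D1:**
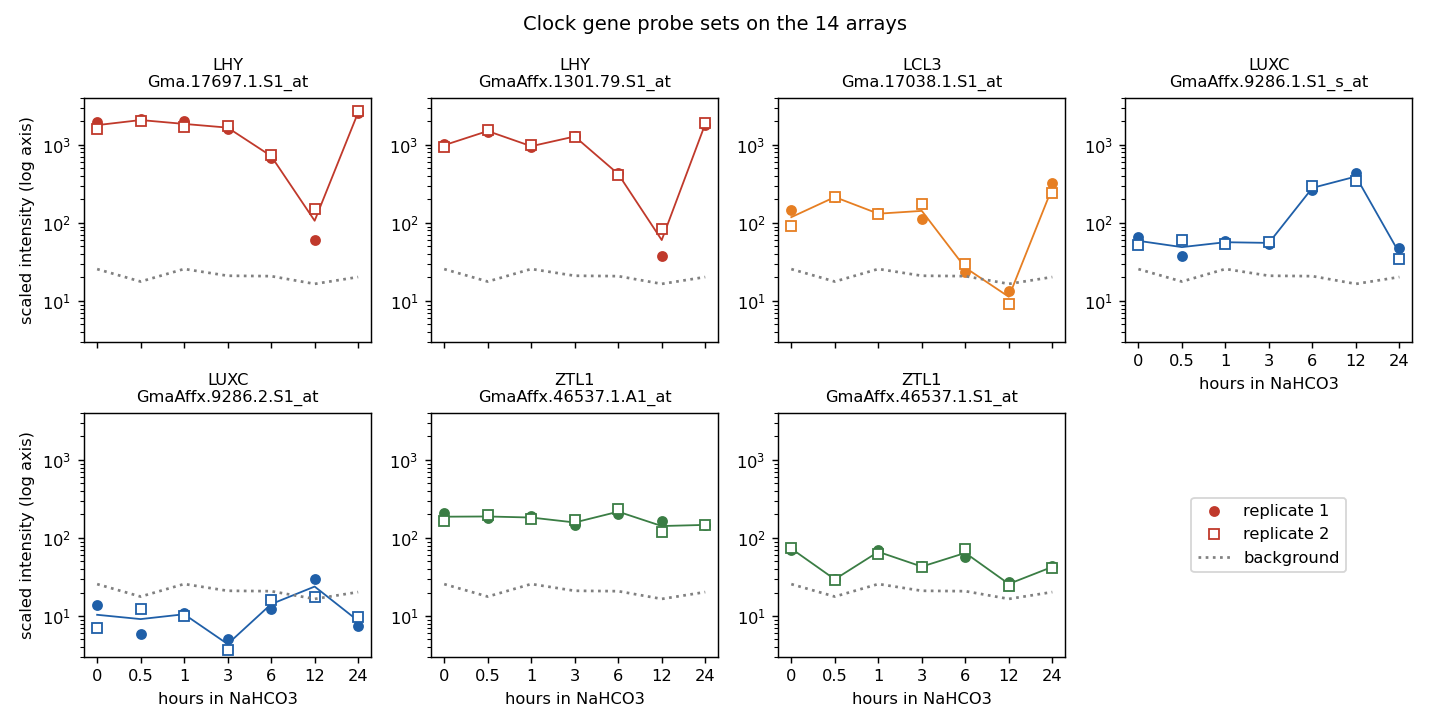
Scaled intensity (vertical log axis) of the 7 probe sets on the 14 arrays by hours of bicarbonate, with 0 h untreated. Filled circles are replicate 1, open squares replicate 2, the solid line joins the means of 2 arrays and the dotted line is the mean background; LHY and LCL3 are lowest at 12 h, where the brighter LUXC probe set is highest.

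LCL3, the LHY/CCA1-like gene, followed LHY at a lower signal and passed below background at 12 h. Its only probe set read 145 and 92.4 at 0 h, 213 and 216 at 0.5 h, 135 and 128 at 1 h, and 112 and 174 at 3 h. It read 23.3 and 30.0 at 6 h, 13.4 and 9.18 at 12 h, and 327 and 239 at 24 h. Both 12 h arrays were not above background, and both 24 h arrays were above all others. The arrays of 3, 1 and 0 h overlapped.

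LCL3 fell by 1.63 ± 0.23 at 6 h relative to 0 h (adjusted p = 0.00142). At 12 h it was at least 7.03-fold lower than at 0 h (adjusted p = 6.87e-05). Relative to 3 h it fell by 1.87 ± 0.23 at 6 h (adjusted p = 0.00145), and at 24 h it was at least 17.0-fold higher than at 12 h (adjusted p = 3.18e-06). The difference of 12 h from 6 h, -0.64 ± 0.23, missed the threshold (adjusted p = 0.111). It passed in 1 of 25 alternative settings, log2(value + 1) (adjusted p = 0.0472). The 6 h arrays, 23.3 and 30.0, were themselves close to their background of 20.8. The signal of LCL3 at 12 h is only a bound, set by background. At 0.5 h it was 0.80 ± 0.23 above 0 h with no overlap of arrays (adjusted p = 0.0966, past the threshold only without 0h replicate 1, at 0.0474).

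The evening-type gene LUXC moved the other way, low until 3 h, high at 6 and 12 h and low at 24 h. Its brighter probe set read 66.4 and 51.5 at 0 h, 37.9 and 60.1 at 0.5 h, 59.4 and 53.8 at 1 h, and 54.0 and 57.0 at 3 h. It read 265 and 298 at 6 h, 438 and 349 at 12 h, and 47.3 and 34.6 at 24 h. The 4 arrays of 6 and 12 h lay above the other 10 with no overlap, and the arrays of the remaining 5 times overlapped from 1 rank to the next. The probe set's name ends in s_at, which in the manufacturer's naming marks probes that match more than 1 transcript, so related copies may add to this signal.

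LUXC rose by 1.99 ± 0.20 at 6 h relative to 0 h (adjusted p = 0.000143) and by 2.45 ± 0.20 at 12 h (adjusted p = 1.26e-05), a 5.46-fold rise. Of all soybean probe sets, 114 rose further at 6 h and 98 at 12 h. Relative to 3 h it rose by 2.05 ± 0.20 at 6 h (adjusted p = 0.000246), a step over which 36 probe sets rose further. At 24 h it fell by 2.85 ± 0.20 relative to 12 h (adjusted p = 3.57e-06). From 6 to 12 h the difference was 0.45 ± 0.20 and missed the threshold (adjusted p = 0.177).

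The second LUXC probe set was above background on 1 of 14 arrays, 12h replicate 1 at 29.9. Its other 12 h array read 17.7, and the remaining 12 arrays read between 3.69 and 16.2. Both 0 h arrays and 1 of the 12 h arrays were thus not above background, and with 0 h as a bound no fold can be given. The fit on the values as they stand gave a difference of 0.59 ± 0.19 at 12 h relative to 0 h (adjusted p = 0.0452), a call between values near background that ended in 17 of the 24 alternative settings that tested it (adjusted p up to 0.284). At 24 h the fit gave a difference of -0.68 ± 0.19 relative to 12 h (adjusted p = 0.0365), a call that ended in 7 of 24 settings. Both 24 h arrays and 1 of the 12 h arrays were not above background, so no fold is given for that step either.

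ZTL1, the ZEITLUPE-type gene, gave unlike values on its 2 probe sets. Both lie on the same sequence cluster of the array and differ in the orientation letter of their names, A1 or S1. The files do not say which strand each reads, so it is not known here whether both read the ZTL1 messenger RNA. The brighter one, A1, read 209 and 165 at 0 h, 182 and 195 at 0.5 h, 192 and 174 at 1 h, and 145 and 171 at 3 h. It read 203 and 232 at 6 h, 164 and 120 at 12 h, and 147 and 147 at 24 h.

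Of the 6 changes of this ZTL1 probe set from 0 h, 0 passed the test by limma and 0 had an unadjusted p under 0.05, the lowest being 0.0552 at 12 h. Between consecutive times 0 of 5 passed, with 2 at an unadjusted p under 0.05. The nearest was the step of 12 h from 6 h, -0.57 ± 0.17 (adjusted p = 0.0612), which passed in 6 of 25 alternative settings (adjusted p down to 0.0393). Its means spanned 0.57 log2 over the course, and 58.9% of soybean probe sets had a wider span. At 12 h it differed from 0 h by -0.37 ± 0.17, with a 95% interval of -0.75 to 0.01 (adjusted p = 0.146). At 6 h the difference from 0 h was 0.20 ± 0.17, with an interval of -0.17 to 0.58 (adjusted p = 0.519). These intervals do not show that the level was constant, but they leave out changes of the size seen for LHY or LUXC.

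The dimmer ZTL1 probe set, S1, was lower at 0.5 and 12 h. It read 71.1 and 74.9 at 0 h, 30.2 and 28.8 at 0.5 h, 70.4 and 62.5 at 1 h, and 43.1 and 42.7 at 3 h. It read 56.5 and 72.1 at 6 h, 27.0 and 24.5 at 12 h, and 43.7 and 41.5 at 24 h. The 4 arrays of 0.5 and 12 h were the lowest, and the highest mean was at 0 h, whose arrays overlapped those of 6 h.

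This probe set fell by 0.97 ± 0.13 at 0.5 h (adjusted p = 0.00377), and it fell by 1.09 ± 0.13 at 12 h (adjusted p = 0.000245), each relative to 0 h. It fell by 0.59 ± 0.13 at 3 h (adjusted p = 0.0458), and it fell by 0.60 ± 0.13 at 24 h (adjusted p = 0.0319). Of these calls the one at 12 h held in every alternative setting that tested it. The call at 0.5 h ended without 0.5h replicate 2 and with the 0.5 and 0 h arrays alone (adjusted p up to 0.0898). The call at 3 h ended in 21 of 26 settings (adjusted p up to 0.324). The call at 24 h ended in 8 of 26, all of them settings that left out an array of 0, 0.5 or 24 h or used the 24 and 0 h arrays alone (adjusted p up to 0.162). The array background was also lowest on the 4 arrays of 0.5 and 12 h, 14.8 to 18.3 against 20.0 to 28.6 on the other 10. The deposited signal of the spike-in bioB was 213 and 202 at 0.5 h and 280 and 474 at 12 h, against 406 to 789 on the other 10 arrays. Their part in these changes was not tested, and neither was the difference between the 2 ZTL1 probe sets.

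**Figure D2:**
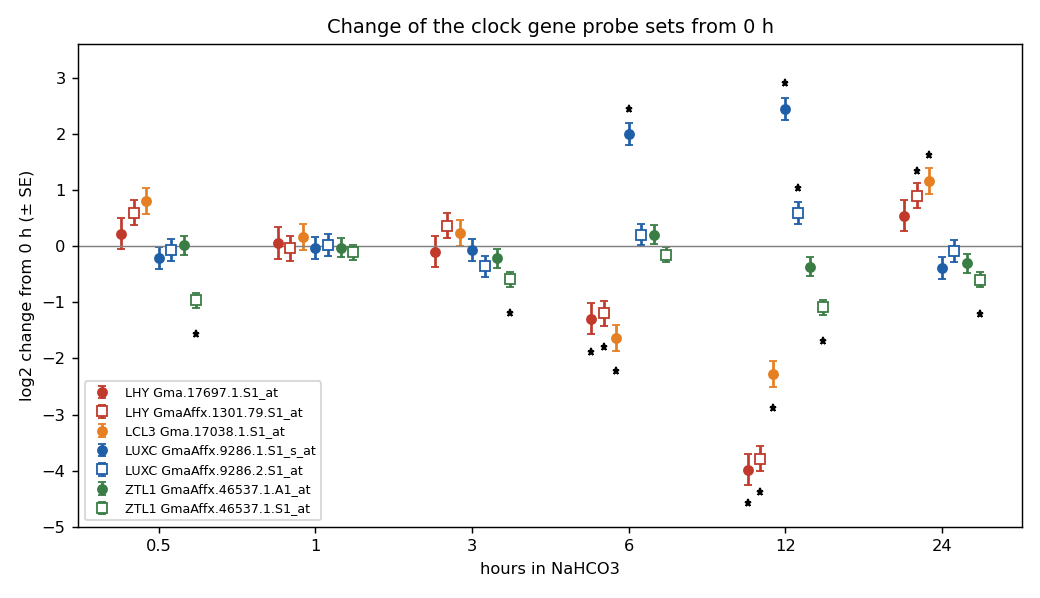
Log2 change of intensity + 16 from 0 h (vertical axis, bars are the SE from limma) for the 7 probe sets by hours of bicarbonate. Stars mark changes with an adjusted p under 0.05; at 12 h the LHY probe sets lie at -3.98 and -3.79 and the brighter LUXC probe set at 2.45.

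Side by side, the log2 changes from 0 h at 6 and 12 h were -1.29 and -3.98 for the brighter LHY probe set and -1.20 and -3.79 for the second. They were -1.63 and -2.28 for LCL3, where the value at 12 h is limited by background, and 1.99 and 2.45 for the brighter LUXC probe set. They were 0.20 and -0.37 for the brighter ZTL1 probe set and -0.15 and -1.09 for the dimmer. The step of 12 h from 6 h passed the test for both LHY probe sets, -2.69 and -2.59, and for the dimmer ZTL1 probe set, -0.94 (adjusted p = 0.00177). It missed the threshold for LCL3, for both LUXC probe sets and for the brighter ZTL1 probe set. Differences between genes were not tested.

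At 24 h both arrays of LHY and of LCL3 read above both 0 h arrays. Both arrays of the brighter LUXC probe set and of each ZTL1 probe set read below them. The 24 h arrays of the second LUXC probe set, near background, overlapped 0 h. Of all soybean probe sets, 50.9% did not overlap between these times. LCL3 rose by 1.16 ± 0.23 relative to 0 h (adjusted p = 0.0235), a call that ended in 5 of 26 settings, among them without either 24 h array or without 0h replicate 2 (adjusted p up to 0.147). The second LHY probe set rose by 0.89 ± 0.22 (adjusted p = 0.0439), a call that ended in 17 of 26 settings (adjusted p up to 0.191), among them without any 1 of the 12 arrays other than those of 12 h. The brighter LHY probe set differed by 0.54 ± 0.28 (adjusted p = 0.274), with an interval of -0.07 to 1.16. The brighter LUXC probe set differed by -0.40 ± 0.20 (adjusted p = 0.256), with an interval of -0.83 to 0.03. For the brighter ZTL1 probe set the difference was -0.31 ± 0.17 (adjusted p = 0.313), with an interval of -0.69 to 0.07. The dimmer ZTL1 probe set fell by 0.60 ± 0.13 (adjusted p = 0.0319), the call given above that ended in 8 of 26 settings.

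By limma's F test over the whole course 6 of 7 clock gene probe sets passed, all but the brighter ZTL1 probe set (adjusted p = 0.127), against 30.4% of all soybean probe sets. The adjusted p was 1.14e-05 and 1.95e-06 for LHY, 1.58e-05 for LCL3 and 8.37e-06 for the brighter LUXC probe set. It was 0.000647 for the dimmer ZTL1 probe set and 0.0447 for the dim LUXC probe set. The count was 5 with log2(value + 64), with all probe sets of the array, with the replicate block and without both 12 h arrays. With the filter on dim probe sets, which left out the dim LUXC probe set, it was also 5. The means of the LHY probe sets spanned 4.53 and 4.68 log2, those of LCL3 3.44 and those of LUXC 2.85, against a median of 0.64 over all soybean probe sets. Only 0.136% of soybean probe sets spanned more than the brighter LHY probe set, and 1.19% more than LUXC.

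Against 0 h, 1 of 7 member probe sets passed the test at 0.5 h, where 2.54% of all soybean probe sets did, and 1 of 7 at 3 h, where 2.46% did. At 1 h 0 of 7 passed by limma and 0 had an unadjusted p under 0.05, and 0% of all passed. At 6 h 4 passed, against 9.99% of all. Of these 1 rose and 3 fell, where 4.16% of all rose and 5.84% fell. At 12 h 6 passed, against 24.4% of all, and 2 rose and 4 fell, where 11.4% of all rose and 13% fell. Of those 2 rises 1 is that of the second LUXC probe set, near background. At 24 h 3 passed, against 5.21% of all, and 2 rose and 1 fell, where 2.22% of all rose and 2.99% fell.

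The later arrays did not overlap those of 0 h for 4 of 7 member probe sets at 0.5 h (51% of all soybean probe sets), 1 at 1 h (35.7% of all) and 3 at 3 h (45.8% of all). They did not overlap for 4 at 6 h (51.2% of all), 7 at 12 h (58% of all) and 6 at 24 h (50.9% of all). With 2 arrays per time, lack of overlap was common among all probe sets.

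Between consecutive times, 1 member probe set of 7 passed at 1 h against 0.5 h (3.75% of all), the dimmer ZTL1 probe set. At 3 h against 1 h 0 passed by limma, with 1 at an unadjusted p under 0.05 (2.39% of all passed). At 6 h against 3 h 4 passed (4.97% of all), of which 1 rose (2.03% of all) and 3 fell (2.94% of all). At 12 h against 6 h 3 passed (9.51% of all), of which 0 rose (4.13% of all) and 3 fell (5.38% of all). At 24 h against 12 h 6 passed (15.1% of all), of which 4 rose (8.11% of all) and 2 fell (7.04% of all). Of those 4 rises 1 is that of the dimmer ZTL1 probe set, 0.49 ± 0.13 (adjusted p = 0.0311), which ended in 9 of 25 settings. Of those 2 falls 1 is that of the second LUXC probe set, near background. The course of LHY and LCL3, lower at both 6 and 12 h than at 0 h and higher at 24 h than at 12 h, was shared by 2.95% of soybean probe sets. The reverse course of LUXC was shared by 1.51%.

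**Figure D3:**
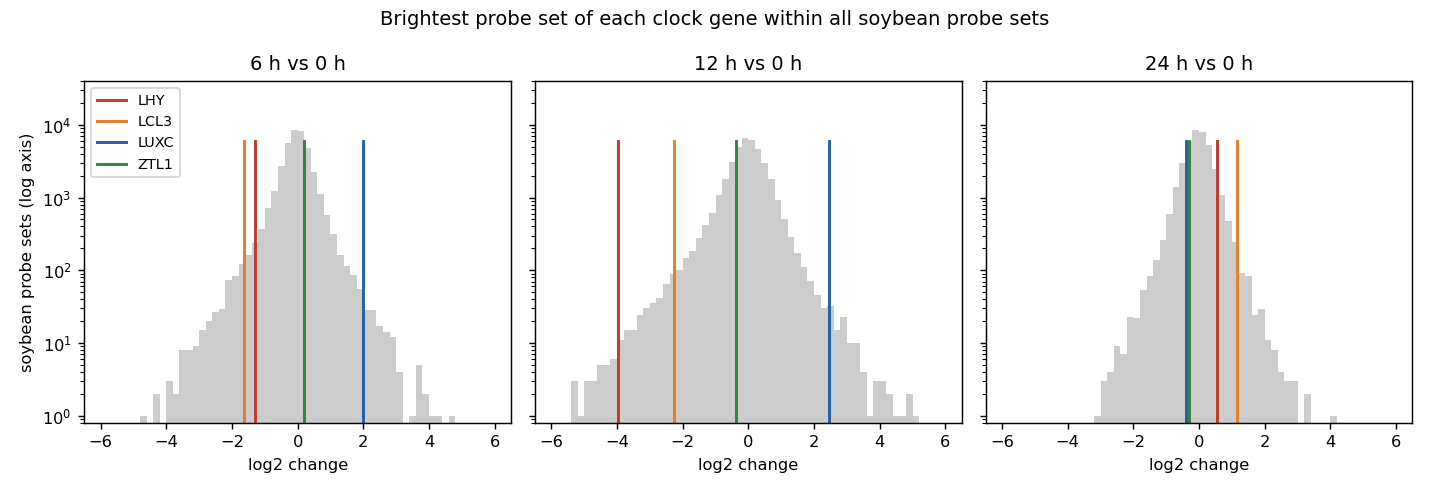
Histograms of the log2 change from 0 h of all 37593 soybean probe sets at 6, 12 and 24 h (vertical log axis, number of probe sets), with the brightest probe set of each clock gene as a coloured line. At 12 h LHY lies at -3.98 in the lower tail and LUXC at 2.45 in the upper tail. ZTL1 lies at 0.20 at 6 h, -0.37 at 12 h and -0.31 at 24 h, with 74.7, 23.4 and 20.7% of probe sets at or below it.

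Among genes of light signalling, flowering and light harvesting, COL10, COL2A, PHYA and CAB3 were lower at 12 h than at 0 h, and STF2 was lower at 6 h. By symbol 8 light signalling and flowering genes and the light-harvesting gene CAB3 were on the array, and no other core clock gene searched for had a symbol of its own. Of these 9 genes 4 fell and 0 rose at 12 h, where 13% of all soybean probe sets fell and 11.4% rose. At 6 h 2 fell and 0 rose, where 5.84% of all fell and 4.16% rose. At 3 h 2 fell and 0 rose, where 2.46% of all passed in either direction. At 0.5, 1 and 24 h 0 passed by limma, with 1, 0 and 1 at an unadjusted p under 0.05, where 2.54%, 0% and 5.21% of all passed. Their median change at 12 h was -0.57, against -0.03 over all soybean probe sets.

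COL10 and COL2A are CONSTANS-like genes, of a family that links day length to flowering. COL10 read 230 and 231 at 12 h, against 1768 and 2201 at 0 h, and fell by 3.01 ± 0.21 (adjusted p = 4.81e-06). COL2A read 1691 and 1670 at 0 h, 854 and 923 at 3 h, 478 and 562 at 6 h, 464 and 555 at 12 h, and 2100 and 2229 at 24 h. The arrays of 3, 6 and 12 h were thus all below those of 0 h, with 6 and 12 h overlapping.

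COL2A fell by 1.67 ± 0.18 at 6 h (adjusted p = 0.000281), and it fell by 1.70 ± 0.18 at 12 h (adjusted p = 9.89e-05), each relative to 0 h. At 3 h it fell by 0.91 ± 0.18 (adjusted p = 0.0339), a call that ended in 9 of 26 settings, among them without any 1 array of 0, 3 or 24 h (adjusted p up to 0.296). At 24 h COL10 differed from 0 h by 0.09 ± 0.21 (adjusted p = 0.844) and COL2A by 0.36 ± 0.18 (adjusted p = 0.267).

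PHYA, which encodes a phytochrome photoreceptor, read 403 and 440 at 0 h, 249 and 243 at 3 h, 363 and 377 at 6 h, and 221 and 265 at 12 h. It fell by 0.74 ± 0.13 at 3 h (adjusted p = 0.0244), a call that ended in 5 of 26 settings, among them without 0h replicate 2 or either 3 h array (adjusted p up to 0.300). At 12 h PHYA fell by 0.76 ± 0.13 relative to 0 h (adjusted p = 0.00179). CAB3 read 8689 and 5168 at 12 h, against 12369 and 12151 at 0 h, and fell by 0.87 ± 0.20 (adjusted p = 0.00905). Its signal at 0 h is close to the highest value in the table, 12812, so its change may be understated.

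The 12 h calls of PHYA and CAB3 ended with the 12 and 0 h arrays alone (adjusted p = 0.0611 and 0.0972). STF2, a bZIP gene of light signalling, read 14.9 and 8.6 at 6 h, not above background, against 42.0 and 32.7 at 0 h (adjusted p = 0.0128). That call ended without 6h replicate 2, without 0h replicate 1 and with the 6 and 0 h arrays alone (adjusted p up to 0.109). Against 0 h FVE, CRY2B and COP10 passed the test at none of the 6 later times by limma, and FT1A was not above background on any array.

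The genes most like each member were looked up by Pearson's r over the 14 arrays, among 5523 genes above background on at least 2 arrays. These values are a description: the points are the same 14 arrays, and r over the 10 arrays other than those of 6 and 12 h is given beside some of them. LHY correlated with LCL3 at r = 0.89 over the 14 arrays and 0.87 over the 10, and with LUXC at r = -0.91 and -0.56. The genes most like LHY were LOC732574 (r = 0.99), LOC102667991 (r = 0.98) and MYB186 (r = 0.98), and among genes with a name also MYB134 (r = 0.98) and RCA14 (r = 0.98), a Rubisco activase gene. Over the 10 arrays other than 6 and 12 h these 5 correlated with LHY at 0.73, 0.78, 0.69, 0.85 and 0.67. MYB186 changed by -1.02 at 6 h, -3.36 at 12 h and 1.22 at 24 h, each relative to 0 h.

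For LCL3 the most alike were LOC100793335 (r = 0.99, and 0.93 over the 10 arrays), LOC100795117 (r = 0.96) and MYB114 (r = 0.96), and among named genes also MYB134 (r = 0.95) and WNK13 (r = 0.94). On the 10 other arrays MYB114 correlated with LCL3 at 0.94, MYB134 at 0.84, LOC100795117 at 0.77 and WNK13 at 0.75. MYB114 changed by -1.94 at 6 h, -3.76 at 12 h and 1.07 at 24 h relative to 0 h.

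For LUXC they were the glutathione transferase gene GSTU28 (r = 0.96), CYP26 (r = 0.96) and LOC100788038 (r = 0.96), and ALDH7B1 (r = 0.95), an aldehyde dehydrogenase gene, among named genes. On the 10 other arrays GSTU28 correlated with LUXC at 0.20 and ALDH7B1 at 0.05, so the likeness of these 2 lies in the rise at 6 and 12 h. On these arrays CYP26 correlated with LUXC at 0.45 and LOC100788038 at 0.63. GSTU28 changed by 1.00 and 1.24 at 6 and 12 h, and ALDH7B1 by 1.61 and 1.94. The brighter ZTL1 probe set had the weakest partners, LOC100806292 (r = 0.87), LOC100807822 (r = 0.84) and LOC100792252 (r = 0.83), and IQD58 (r = 0.81), AUX28 (r = 0.81) and AT-1SNBP (r = 0.79) among named genes.

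**Figure D4:**
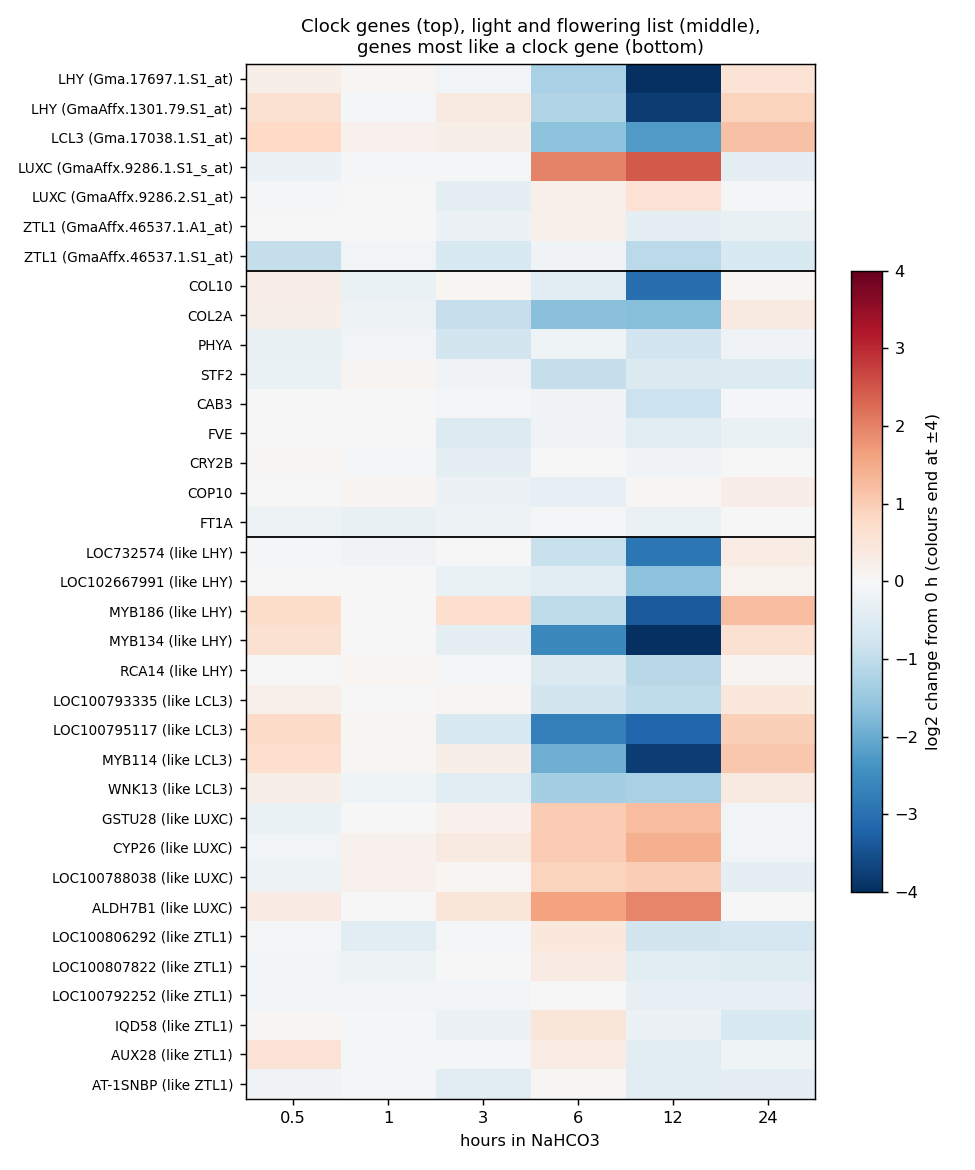
Log2 change from 0 h (colour, ending at ±4) by hours of bicarbonate for the 7 clock gene probe sets (top), the 9 light, flowering and light-harvesting genes (middle) and the genes most like a clock gene by r over the 14 arrays (bottom). At 12 h LHY is at -3.98 and COL10 at -3.01, and LUXC is at 2.45.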

How the data were processed

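The labels describe 14 one-colour arrays hybridised with biotin-labelled RNA. The deposited values are intensities per probe set on a linear scale, 0.92 to 12812.33, and no source used here names the authors' normalization or software. Arrays were scaled to equal soybean medians (56.4), and log2(value + 16) was fitted with limma 3.58.1 in R 4.3.3 (lmFit and eBayes on 7 group means, 7 residual and 4.24 prior degrees of freedom, two-sided). Contrasts were the 6 later times against 0 h, the 5 consecutive steps and the F test. The fit was tested on simulated data. The number of arrays limits the precision (median SE 0.19).

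A probe set at background at 1 time has only a bound there. Its change is then the mean of the other time over the mean, at the dim time, of background or own signal, whichever is higher on that array. Members and lists were chosen with earlier results of these data known. A gene stands by its brightest probe set. The text names every clock gene probe set, per time up to 4 called genes of a list with the largest change, and for each clock gene the 3 most alike genes and the 3 most alike without a LOC symbol. No symbol or identifier of the 4 genes matched the Glycine soja reference table, so no position or sequence is given. Of the soybean probe sets, 8677 have 1 symbol, 370 several and 28546 none. Replicate numbers were not used as pairs in the main fit. Replicate differences correlated at over 0.1 in 4 of 21 pairs of times (-0.22 to 0.23), which cannot show that the arrays were unpaired. Alternatives were other scalings and pseudocounts, a filter on dim probe sets, other probe sets or samples in the fit, the replicate block, other eBayes settings and each array left out.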

Additional observations from a re-analysis of the deposited data

How the results depend on the processing

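Of 77 member changes tested, 29 passed the test, and 17 of these held in each of the up to 26 alternative settings that tested them. They are the falls of both LHY probe sets at 12 h against 0 and 6 h and their rises at 24 h against 12 h, and the fall of the second at 6 h against 3 h. They also include the changes of LCL3 and the brighter LUXC probe set at 6 and 12 h against 0 h, at 6 h against 3 h and at 24 h against 12 h, and the falls of the dimmer ZTL1 probe set at 12 h against 0 and 6 h. No call changed sign. With the arrays of the 2 groups alone 0 member probe sets passed at 0.5 h, 0 at 3 h, 0 at 24 h and 0 at 1 h against 0.5 h. The single member call at 3 h fell to 0 also without scaling, with log2(value + 1), with all probe sets of the array, with the replicate block, without both 12 h arrays and without both 0.5 h arrays (the last 2 settings were chosen after the data were seen). At 24 h 1 passed with log2(value + 1) and 1 without both 0.5 h arrays. Without both 12 h arrays 2 passed at 0.5 h and 2 at 1 h against 0.5 h, where log2(value + 64) also gave 2. Leaving out 1 array gave 0 to 2 at 0.5 h, 0 at 3 h, 2 to 4 at 6 h, 0 to 3 at 24 h and 0 to 2 at 1 h against 0.5 h.

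Of the 9 light, flowering and light-harvesting genes, those called at 3 h numbered 1 with quantile normalization, 0 with log2(value + 1) and 0 with the groups alone, and 0 to 2 without 1 array. The groups alone gave 1 at 6 h and 2 at 12 h, and 1 to 2 were called at 6 h without 1 array. The replicate block gave 1 at 24 h, STF2, which it also called at 12 h. Among member calls it ended 3: the dimmer ZTL1 probe set at 3 h, the second LHY probe set at 24 h and the dim LUXC probe set at 12 h, each against 0 h.

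For all soybean probe sets, log2(value + 1) gave 620 at 0.5 h, 51 at 3 h and 950 at 24 h, and log2(value + 64) 1614 at 3 h. The groups alone gave 175 at 0.5 h, 0 at 3 h, 1714 at 6 h, 3642 at 12 h and 236 at 24 h. All probe sets of the array gave 11 at 1 h and 573 at 3 h, the replicate block 2 and 569, and the fit without both 0.5 h arrays 3, 441 and, at 24 h, 1249. Leaving out 1 array gave 145 to 1258 at 0.5 h, 0 to 15 at 1 h, 85 to 822 at 3 h, 1489 to 3797 at 6 h, 5622 to 9111 at 12 h and 34 to 2029 at 24 h. The cause of these shifts was not tested. Signal over background limits LCL3 at 12 h and the dim LUXC probe set.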

Other observations

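Over all soybean probe sets, 319 correlated with the brighter LHY probe set at r of 0.9 or more over the 14 arrays, 347 with LCL3 and 140 with LUXC, against 1 with ZTL1. At r of -0.9 or less there were 119 for LHY, 117 for LCL3 and 387 for LUXC, so LUXC had more opposed than like probe sets. Among genes with a name, LUXC was the second most opposed to LCL3 (r = -0.94), after GSTU28 (r = -0.95). The most opposed to LUXC were MYB114 (r = -0.96), FAD6.1 (r = -0.96), a plastid fatty acid desaturase, and MYB118 (r = -0.95). These were looked up after the values were seen. Without the arrays of 6 and 12 h LUXC and LCL3 correlated at -0.46 over 10 arrays, and GSTU28 and LCL3 at -0.55. Over the same 10 arrays LUXC correlated with MYB114 at -0.58, with FAD6.1 at -0.02 and with MYB118 at -0.35.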
